A study of Mus musculus with 6 samples.

Results

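Sertoli cell marker genes were followed in whole testes of Alkbh1 knockout mice. They are 30 genes by which the somatic nurse cells of the seminiferous tubule are recognised, and a probe set belonged to them when the platform annotation gave exactly 1 of these symbols as its only gene. This rule found 43 probe sets for 27 of the 30 genes, among 34945 probe sets that name 1 gene. Rhox8, Trf and Defb36 had no such probe set, and their expression is not analysed here. The groups were 3 wild-type mice (WT) and 3 mice with the genotype Alkbh1-/- (KO), both on a background that the source label spells C57/BL6 and the genotype field C53/BL6. All were 12 weeks old, and each testis RNA (integrity number 9.8 to 10, per the labels) was read on 1 Affymetrix array. The sources used here do not say how the Alkbh1 allele was made. Values are normalized log2 expression values, so that a difference of 1 is a doubling.

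Sertoli cells line the tubule from its base to its lumen and hold germ cells of every stage. Follicle-stimulating hormone (FSH) and testosterone act on them, and they signal back to germ cells and interstitial cells through secreted factors such as KIT ligand, GDNF, desert hedgehog, inhibins and anti-Müllerian hormone. Their tight junctions form the blood-testis barrier, and their secretions carry iron, lipids and steroids across it. Several of the markers are also made by other cells: Gata4, Nr0b1, Inha and Amhr2 by Leydig cells, Gata1 by erythroid and mast cells, and Clu, Cited2 and Fabp5 by many cell types.

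The arrays correlated with each other at 0.989 to 0.996, though WT replicates 1 and 2 stood apart. Alkbh1 had lower values in KO at both of its probe sets, of which 1 passed the test. Probe set 1434660_at averaged 8.60 ± 0.15 in WT against 5.42 ± 0.30 in KO (SD over 3 mice each, limma adjusted p = 0.000582). Probe set 1438681_at averaged 6.99 ± 0.17 in WT against 5.97 ± 0.17 in KO and did not pass (limma adjusted p = 0.0697). WT replicates 1 and 2 stood at opposite ends of the first principal component (40.8% of the variance). Their poly-A control RNAs read 6.69 and 9.41 on average, against 7.59 to 8.10 on the other 4 arrays. Over all genes 11 of 27022 probe sets passed the test (0.0407%).

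Most Sertoli markers had slightly lower values in KO, and none passed the test. Of the 27 genes 26 had at least 1 probe set in the upper 60% by level, the condition for the test, Sox9, Wt1, Gata4, Amh, Fshr and Clu among them, and only Gdnf had none. At the brightest probe set of each gene, 21 of these 26 genes were lower in KO and 5 were higher. Over probe sets, 30 of the 39 tested were lower in KO (76.9%), beside 43.6% of all probe sets tested. With quantile normalization these shares were 82.1% and 50.3%. The median difference was −0.053 log2 over the 39, beside 0.013 over all probe sets tested. None of the 39 passed the test (limma with Benjamini-Hochberg adjustment over 27022 probe sets, adjusted p from 0.908 to 1.00), beside 0.0407% of all. At an unadjusted p under 0.05 there were 2 of the 39 (5.13%), Kitl and Inha, against 5.11% of all probe sets tested. In a whole testis, lower marker values cannot tell apart fewer Sertoli cells, less RNA per Sertoli cell and more RNA from other cells.

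**Figure D1:**
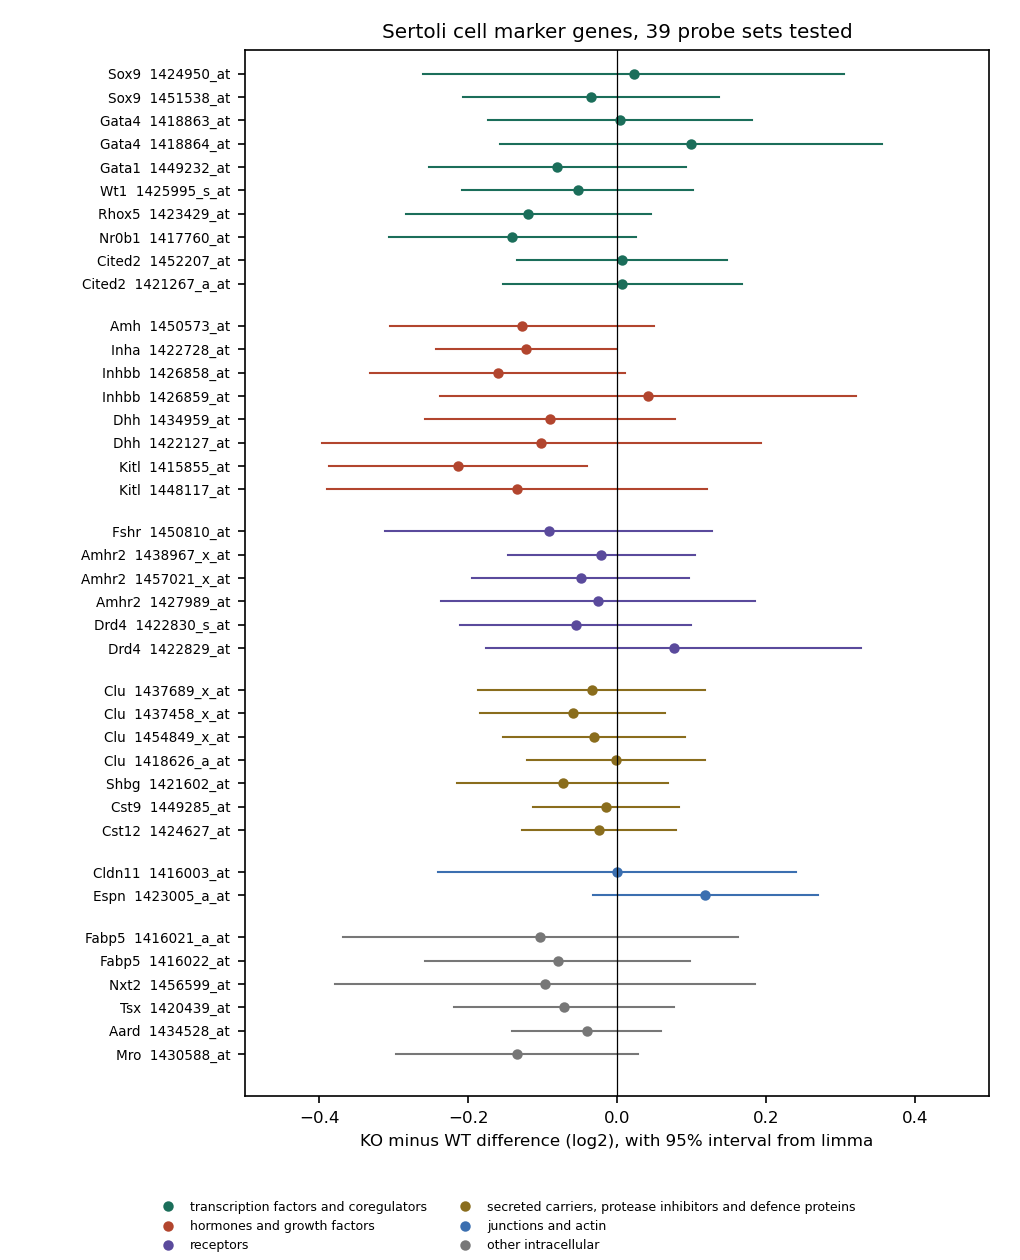
Differences between KO and WT (x axis, log2) with 95% intervals from limma for the 39 tested probe sets of Sertoli markers (y axis), coloured by the role of the gene. All intervals lie within 0.5 log2 of 0, and those of Kitl 1415855_at and Inha 1422728_at are the only ones that leave out 0.

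The sizes were small and the precision was enough to bound them. Differences ran from −0.21 (Kitl) to 0.12 (Espn), and 38 of the 39 were under 0.2 log2 in size, beside 93.2% of all probe sets. The median standard error of a member was 0.072. The 95% intervals of all 39 lay within 0.5 log2 of 0, the farthest bound being 0.40 from 0, before any adjustment for the number of tests. The median size of a difference, without its sign, was 0.071 in the markers and 0.060 over all probe sets.

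The shift was not equal in all 6 testes. Against the mean of the 6 arrays, the 26 genes averaged 0.017, 0.048 and 0.034 in WT replicates 1 to 3 and −0.005, −0.050 and −0.044 in KO replicates 1 to 3. KO replicate 1 thus lay close to 0, and the genotypes did not overlap in this average. Of the 39 probe sets 24 had their lowest value in KO replicate 2 or 3 (61.5%), against 23.5% of all probe sets tested. WT replicate 3 held the lowest value of 0 of the 39, against 10.2% of all. The highest value lay in a WT array for 30 of the 39 (76.9%, against 55.1% of all), and 14 of these were in WT replicate 1.

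**Figure D2:**
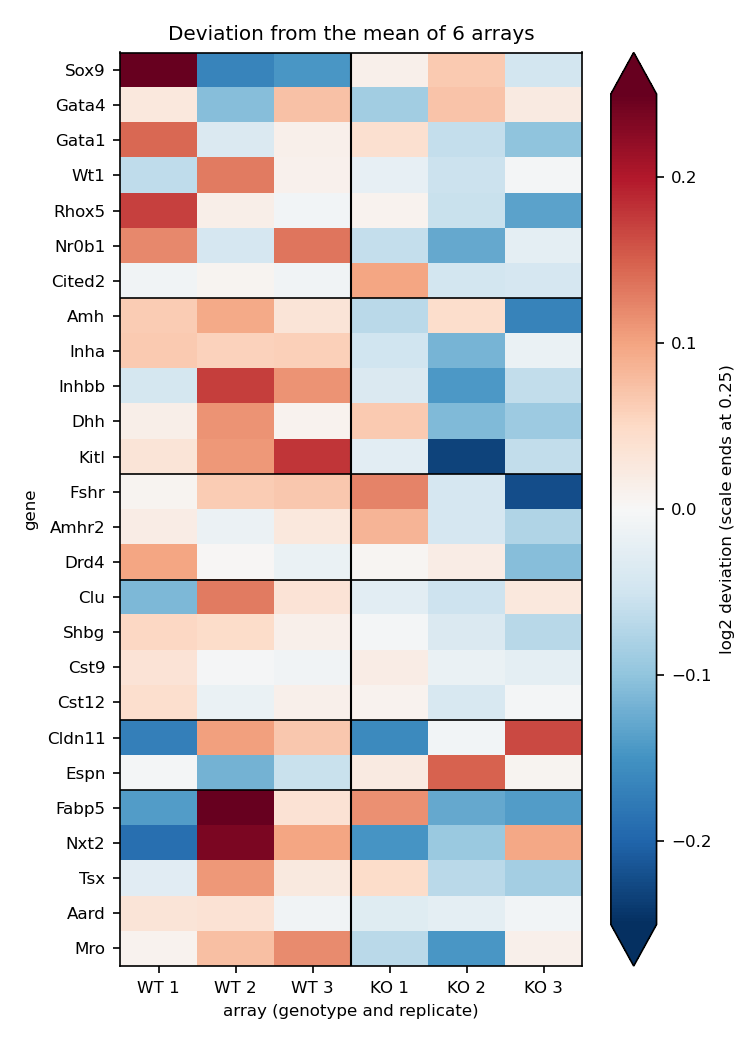
Deviation of the 26 tested genes (rows, brightest probe set, grouped by role) from the mean of the 6 arrays, in log2, in each array (columns). KO replicates 2 and 3 hold most of the low values, and the averages over the genes are −0.050 and −0.044 there against −0.005 in KO replicate 1.

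The KO and WT values did not overlap for 4 of the 39 probe sets. Those of Kitl, Inha and Shbg lay wholly lower in KO (7.69% of the 39, against 3.84% of all tested), and that of Espn lay wholly higher (2.56%, against 7.12%). For a look at the sequence at listed starts of these genes, the 250 bases before a RefSeq transcription start are shown. They are given 5′ to 3′ on the gene's strand (GRCm38.p6, Espn at the start farthest upstream). A listed start can lie inside a gene, and that of Inha may do so. Capitals mark matches to 6 short motifs, searched on both strands in the 300 bases around each start. The SOX motif was searched as ACAAAG, and that of WT1 as GCGGGGGCG. The motif of SF-1 was searched as CAAGGTCA, and the cyclic AMP response element (CRE) as TGACGTCA. The E-box was searched with the letters CACGTG. For factors that bind GATA, the letters AGATAA were used.
Kitl, chr10:100015571-100015820, plus strand: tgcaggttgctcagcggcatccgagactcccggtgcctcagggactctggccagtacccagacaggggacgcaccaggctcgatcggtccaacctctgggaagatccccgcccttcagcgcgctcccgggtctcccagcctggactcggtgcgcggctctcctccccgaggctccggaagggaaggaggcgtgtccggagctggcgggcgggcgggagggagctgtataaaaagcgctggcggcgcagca
Inha, chr1:75507359-75507608, plus strand: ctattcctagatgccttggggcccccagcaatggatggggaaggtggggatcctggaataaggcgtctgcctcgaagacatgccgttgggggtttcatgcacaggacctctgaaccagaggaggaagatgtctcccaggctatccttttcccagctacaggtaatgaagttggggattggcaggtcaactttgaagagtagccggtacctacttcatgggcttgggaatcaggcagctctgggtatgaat
Shbg, chr11:69617906-69618155, minus strand: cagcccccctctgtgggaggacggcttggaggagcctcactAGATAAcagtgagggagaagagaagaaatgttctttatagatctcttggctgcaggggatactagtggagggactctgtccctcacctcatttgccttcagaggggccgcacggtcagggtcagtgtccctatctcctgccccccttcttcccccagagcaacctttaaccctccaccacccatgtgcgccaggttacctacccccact
Espn, chr4:152152390-152152639, minus strand: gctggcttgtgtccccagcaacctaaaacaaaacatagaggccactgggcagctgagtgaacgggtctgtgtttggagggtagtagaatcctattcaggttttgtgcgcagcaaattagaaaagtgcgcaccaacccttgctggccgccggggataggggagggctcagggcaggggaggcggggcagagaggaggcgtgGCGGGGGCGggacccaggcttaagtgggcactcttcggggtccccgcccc

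These stretches differ in base composition and hold few of the motifs. Kitl has the most G and C (69.2%) and Inha the least (53.6%), and the median over all such stretches is 52.4%. The stretches printed for Kitl and Inha hold none of the 6 motifs. That of Inha reads without a stop codon over most of its length, so the start used may lie inside the gene. The base composition and the lack of motifs given for Inha may therefore not be those of its promoter. Sequence farther upstream of Inha was not searched. Shbg holds 1 GATA motif, and Espn holds 1 WT1 motif, 50 bases before its start. Over the 24 starts listed for 20 of the 30 markers, SOX letters occur in 4 (16.7%, beside 18.7% of all 32851 starts), GATA in 3 (12.5%, beside 11.2%) and the E-box in 2 (8.33%, beside 7.15%). WT1 and SF-1 letters occur in 1 each (4.17%, beside 2.91% and 1.56%), SF-1 in Amhr2, and the CRE in 0 (beside 1.79%). No motif stands far from its share of all starts at these counts. A match is letters only, and nothing follows from these windows about binding.

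Hormones and growth factors held the largest differences. All 5 of these genes that were tested were lower in KO at their brightest probe set, with a median of −0.13. Of their 8 probe sets 0 passed (limma, 2 at an unadjusted p under 0.05, beside 5.11% of all probe sets tested). Kitl encodes the KIT ligand, which keeps differentiating spermatogonia alive. Its probe set 1415855_at read 9.85, 9.93 and 10.00 in WT and 9.80, 9.59 and 9.76 in KO. All 3 KO values were below all 3 WT values, and KO replicate 2 was the lowest. The difference was −0.21 ± 0.07 (SE) with a 95% interval from −0.39 to −0.04, or 1.16-fold lower (limma adjusted p = 0.908).

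The other Kitl probe sets did not repeat that separation. At 1448117_at, WT read 8.22, 8.01 and 8.26 and KO read 8.24, 7.95 and 7.90. KO replicate 1 was among the WT values there, and the difference was −0.13 ± 0.11 (limma adjusted p = 0.993). The 2 dim probe sets, 1426152_a_at and 1415854_at, lay under the level filter and were not tested, and their means differed by 0.10 and 0.01.

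Inha encodes the alpha subunit of inhibin, the hormone by which Sertoli cells hold back FSH. It read 10.74 in all 3 WT testes, with an SD of only 0.0044, and 10.63, 10.56 and 10.66 in KO. The 3 KO values lay below the WT values, and they spread more widely than these (SD 0.051). The difference was −0.12 ± 0.05, or 1.09-fold lower (limma adjusted p = 0.974, unadjusted 0.0487).

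Inhbb encodes the beta B subunit, which pairs with the alpha subunit in inhibin B and with itself in activin B. Its brighter probe set 1426858_at read 9.38, 9.60 and 9.54 in WT and 9.39, 9.29 and 9.37 in KO. KO replicate 1 exceeded WT replicate 1, so that the groups overlapped, and the difference was −0.16 ± 0.07 (limma adjusted p = 0.984). The other probe set, 1426859_at, went the opposite way. It read 7.97, 7.68 and 7.68 in WT and 7.92, 7.93 and 7.59 in KO, a difference of 0.04 ± 0.12 (limma adjusted p = 0.995).

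**Figure D3:**
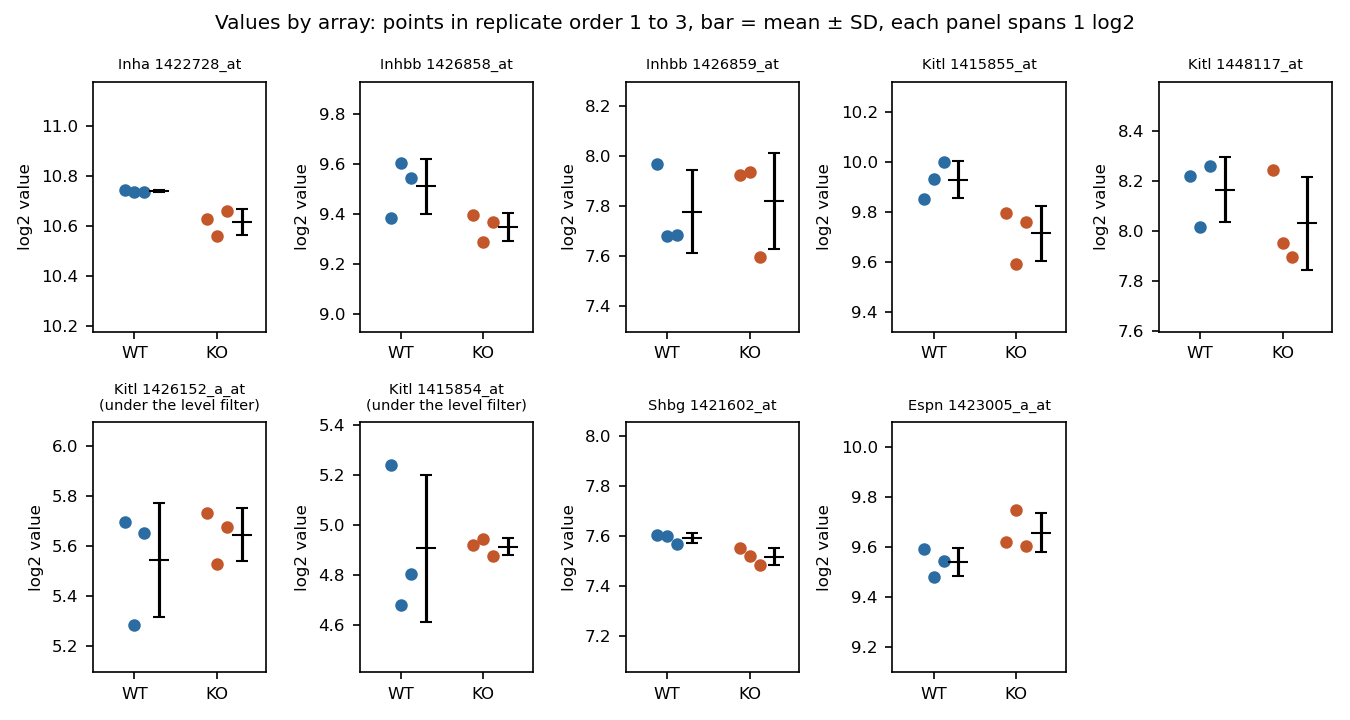
Normalized log2 values (y axis, 1 log2 in every panel) of the probe sets of Inha, Inhbb, Kitl, Shbg and Espn in 3 WT and 3 KO testes (points), with the mean ± SD. Kitl 1415855_at, Inha and Shbg show KO wholly below WT, Espn shows KO wholly above, and the other probe sets of Kitl and Inhbb overlap.

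Amh and Dhh overlapped between genotypes, and Gdnf was too dim to test. Amh encodes anti-Müllerian hormone, a product mainly of immature Sertoli cells. It read 7.09, 7.12 and 7.06 in WT and 6.96, 7.07 and 6.86 in KO. KO replicate 2 lay within the WT values, and the difference was −0.13 ± 0.08 (limma adjusted p = 0.993). Dhh encodes desert hedgehog, which acts on Leydig and peritubular cells. Its 2 probe sets differed by −0.09 ± 0.07 and −0.10 ± 0.13 (limma adjusted p = 0.993 for both), and the dimmer one spread from 7.18 to 7.71 within WT alone. Gdnf, the factor that maintains spermatogonial stem cells, read 5.70, 5.40 and 5.75 in WT and 5.68, 5.54 and 5.71 in KO. The groups overlapped.

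All 3 receptor genes were lower in KO at their brightest probe set, with a median of −0.055 (2 of 3 without KO replicate 3, where Amhr2 turned to 0.012). Fshr, the receptor by which Sertoli cells sense FSH, read 7.29, 7.34 and 7.35 in WT and 7.40, 7.24 and 7.06 in KO. KO replicate 1 was the highest of the 6 and KO replicate 3 the lowest, and the difference was −0.09 ± 0.09 (limma adjusted p = 0.993). Without KO replicate 3 it was −0.0042. Amhr2, the receptor of anti-Müllerian hormone, had 3 probe sets with differences of −0.02, −0.05 and −0.03. In all 3 the KO and WT values overlapped. The brightest, 1438967_x_at, and 1457021_x_at are of a kind (ending in _x_at) that may also read other transcripts. The dopamine receptor gene Drd4 gave −0.06 at 1 probe set, which ends in _s_at and can read more than 1 transcript, and 0.08 at the other. Of the 6 receptor probe sets 0 passed (limma, 0 at an unadjusted p under 0.05).

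Transcription factors held 4 genes that were lower in KO and 3 that lay close to 0. At the brightest probe set Nr0b1, Rhox5, Gata1 and Wt1 were lower, and Sox9, Cited2 and Gata4 were higher by at most 0.02. The count of lower genes was 5 of 7 with quantile normalization, where Cited2 turned to −0.0030, and 6 of 7 with array weights, where Cited2 (−0.0051) and Gata4 (−0.017) both turned. It was 4 to 6 of 7 when single arrays were left out. In the fit of all 6 arrays, 0 of their 10 tested probe sets passed (limma, 0 at an unadjusted p under 0.05). Sox9, the factor that sets and keeps Sertoli identity, read 7.63, 7.18 and 7.20 in WT and 7.36, 7.41 and 7.30 in KO at 1424950_at. WT replicate 1 stood above the rest and the KO values lay between the WT values, with a difference of 0.02 ± 0.12 (limma adjusted p = 0.999). The probe set 1451538_at gave −0.04 ± 0.07. The remaining one, 1433889_at, lay under the filter at 3.88 to 4.08 and carried no test.

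Gata4, a zinc finger factor of Sertoli and Leydig cells, had differences of 0.00 and 0.10 at its 2 probe sets. Wt1, needed for Sertoli cell maintenance, read 9.46 ± 0.10 in WT and 9.41 ± 0.03 in KO (SD, n = 3 each), and its difference of −0.05 became −0.00069 without WT replicate 2. Its probe set is of a kind (ending in _s_at) that can read more than 1 transcript. Cited2, a coregulator, differed by 0.01 at both of its probe sets.

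The X-linked factors were lower in KO. Nr0b1, which encodes the nuclear receptor repressor DAX1, read 8.90, 8.73 and 8.91 in WT and 8.72, 8.65 and 8.75 in KO. The groups overlapped at WT replicate 2 and KO replicate 3, and the difference was −0.14 ± 0.07 (limma adjusted p = 0.993). Rhox5, an androgen-regulated homeobox gene of Sertoli cells, read 10.15, 10.00 and 9.98 in WT and 9.99, 9.93 and 9.85 in KO. KO replicate 1 exceeded WT replicate 3 narrowly, and the difference was −0.12 ± 0.07 (limma adjusted p = 0.993). Gata1, expressed by Sertoli cells in a stage-dependent way, differed by −0.08 ± 0.07 (limma adjusted p = 0.993).

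With Tsx and Nxt2, 5 of the 26 genes lie on the X chromosome. All 5 were lower in KO, with a median of −0.097, and 16 of the 21 genes on autosomes were lower, with a median of −0.053. X-linked probe sets as a whole also tended lower, at 64.5% of the 650 tested and a median of −0.034.

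Secreted carriers and protease inhibitors had bright probe sets and small differences. All 4 genes measured were lower in KO, from −0.07 to −0.00 over 7 probe sets (3 of 4 without WT replicate 2, where Clu turned to 0.022 at its brightest probe set), and 0 passed (limma, 0 at an unadjusted p under 0.05). Shbg encodes the androgen-binding protein of the tubule. It read 7.60, 7.60 and 7.57 in WT and 7.55, 7.52 and 7.48 in KO, with no overlap, but the difference was only −0.07 ± 0.06 (limma adjusted p = 0.993). Cst9, a cystatin-family gene of Sertoli cells, read 12.85 ± 0.02 in WT and 12.83 ± 0.02 in KO. Its relative Cst12, on chromosome 2 as well, read 12.33 ± 0.03 and 12.30 ± 0.03. Both cystatin differences were −0.02.

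Clu encodes clusterin, a secreted chaperone that coats sperm. Its 4 probe sets read between 13.01 and 13.39 over all arrays and differed by −0.03, −0.06, −0.03 and −0.00 between KO and WT. Of the 4 probe sets 3 end in _x_at, which marks probes that may also read other transcripts.

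Of the 2 junction and actin genes, Espn was higher in KO under every alternative fit, and Cldn11 had no stable direction. Espn encodes espin, which bundles actin where Sertoli cells grip spermatids. It read 9.59, 9.48 and 9.54 in WT and 9.62, 9.75 and 9.60 in KO. All KO values were above all WT values, though KO replicate 3 and WT replicate 1 were nearly equal, and the difference was 0.12 ± 0.07 (limma adjusted p = 0.993). Cldn11, the main claudin of the Sertoli tight junction, read 10.30, 10.58 and 10.54 in WT and 10.32, 10.47 and 10.64 in KO. The means were equal to 2 decimals at 10.48, with a 95% interval of the difference from −0.24 to 0.24. Cldn11 turned to −0.020 with quantile normalization and to −0.051 with array weights, and it ran from −0.085 to 0.080 when single arrays were left out.

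The 5 remaining genes were lower in KO and overlapped. Mro, a nucleolar protein gene of the male gonad, read 7.999, 8.06 and 8.11 in WT and 7.92, 7.84 and 8.002 in KO, a difference of −0.13 ± 0.07 (limma adjusted p = 0.993). KO replicate 3 matched WT replicate 1 closely. Fabp5, a fatty acid carrier, gave −0.10 and −0.08 at its 2 probe sets, and Nxt2, a factor of mRNA export, gave −0.10 ± 0.12. Without WT replicate 2, Fabp5 1416021_a_at (−0.10 with all arrays) was at −7.3e-05 and Nxt2 at −0.0040. Tsx, a testis gene near the X inactivation centre, gave −0.07 ± 0.06 and Aard −0.04 ± 0.04. Aard was among the most even markers, at 12.38 ± 0.03 in WT and 12.34 ± 0.01 in KO.

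Probe sets of 1 gene agreed in direction in part. Of the 10 genes with 2 to 4 probe sets, 6 had all of them on 1 side of 0 (Gata4, Cited2, Dhh, Amhr2, Clu and Fabp5). The other 4 (Sox9, Inhbb, Kitl and Drd4) had both signs. Kitl spanned the most, 0.31 log2 from its lowest to its highest difference, followed by Inhbb with 0.20. The dimmer probe sets of these genes read higher in WT replicate 1 than in WT replicate 2 in 8 of the 13 cases that were tested, while the brightest did so in 4 of 10 (44.8% of all tested probe sets). The 3 dimmer ones under the level filter did so as well. Dhh 1422127_at, with 7.71 and 7.18, and Sox9 1424950_at, with 7.63 and 7.18, show how far these 2 WT arrays could part. What separates these arrays was not tested.

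Genes that work with the markers showed no call. Of 10 tested genes of FSH and androgen signalling 4 were lower and 6 higher (median 0.021), and 0 passed (limma, 0 at an unadjusted p under 0.05). Crem, the cyclic AMP regulated factor that is mostly made by spermatids, stood at 0.12 ± 0.06 and the phosphodiesterase gene Pde4d at 0.08 ± 0.07 (limma adjusted p = 0.993 for both). Of 12 tested receptors and targets of Sertoli ligands 5 were lower and 7 higher (median 0.015), and 0 passed (limma, 1 at an unadjusted p under 0.05). Gfra1, the GDNF receptor of stem cells, read 6.59, 6.38 and 6.49 in WT and 6.35, 6.34 and 6.27 in KO. The groups did not overlap, with KO wholly lower as in 3.84% of all probe sets tested. The difference was −0.17 ± 0.08 (limma adjusted p = 0.993). Acvr1, a type I receptor that can serve AMH, gave 0.38 ± 0.12 (limma adjusted p = 0.863) at its brightest probe set but 0.04 and −0.14 at its others.

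Among genes of the blood-testis barrier and adhesion, 8 of 13 were lower (median −0.030) and 0 passed (limma, 1 at an unadjusted p under 0.05). Eps8, an actin capping and bundling protein of the ectoplasmic specialisation, had the largest difference of these lists apart from those of fat and epididymis. It read 8.61, 8.91 and 8.90 in WT and 8.23, 8.25 and 8.36 in KO at 1422824_s_at. Every KO value was below every WT value there, as in 3.84% of all probe sets tested. The difference was −0.53 ± 0.09 (limma adjusted p = 0.341), and its 2 other probe sets gave −0.30 and −0.24. Eps8 lies on chromosome 6 with 1 annotated gene between it and Ptpro, which passed the test with 2.03 ± 0.16 in the opposite direction (limma adjusted p = 0.00944). Ocln, which encodes occludin, stood at −0.10 ± 0.06.

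A list of Sertoli nursing and structure genes had 12 of 18 lower (median −0.025) and 0 called (limma, 2 at an unadjusted p under 0.05). Tubb3, a tubulin gene, read 8.43, 8.38 and 8.52 in WT and 8.07, 8.29 and 8.31 in KO, a difference of −0.22 ± 0.08 (limma adjusted p = 0.932). Cxcl12, a chemokine of the stem cell niche, went the other way by 0.38 ± 0.12 (limma adjusted p = 0.863), with 0.22 and 0.03 at its 2 other probe sets. Both genes had groups without overlap at the probe set named. Of all probe sets tested, 3.84% lay wholly lower in KO and 7.12% wholly higher. Tubb3 and Cxcl12, like Gfra1 and Eps8, were named for the smallest p of their list, which favours separated groups. The lack of overlap is therefore no further evidence for these genes.

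Markers of other cells were read beside the Sertoli genes. Over all probe sets tested, 43.6% were lower in KO and the median difference was 0.013. Of the spermatid markers 14 of 14 were higher in KO (median 0.051), with averages against the mean of the 6 arrays from −0.048 to 0.017 in WT and from 0.013 to 0.049 in KO. WT replicates 1 and 2 gave the low WT values. The acrosomal protease gene Acr stood at 0.11 ± 0.05 and the sperm calcium channel gene Catsper1 at 0.13 ± 0.07 (limma adjusted p = 0.961 and 0.993). Spermatocyte markers were higher in 6 of 9 cases (median 0.037; WT from −0.18 to 0.064, KO from −0.002 to 0.063), with Hspa2 at 0.08 and Ldhc at 0.06. Spermatogonial markers were lower in 5 of 8 cases (median −0.015; WT from −0.057 to 0.17, KO from −0.095 to 0.025), with Gfra1 and Sohlh1 (−0.16) at the smallest p.

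The other somatic lists overlapped between genotypes in their averages. Their counts of lower and higher genes stand beside the 43.6% of all probe sets tested that were lower in KO. Leydig cell markers were lower in 4 of 6 cases (median −0.036; WT from −0.19 to 0.19, KO from −0.13 to 0.10), with Star at −0.33 and Hsd3b1 at −0.20. Both of these genes overlapped between genotypes, and the highest difference of the list was 0.19. Peritubular myoid markers were lower in 6 of 9 cases (median −0.046; WT from −0.032 to 0.056, KO from −0.069 to 0.040), with Mylk at −0.10 and Myh11 at −0.08. Macrophage markers were higher in 7 of 9 cases (median 0.021; WT from −0.14 to 0.051, KO from −0.087 to 0.10), with Lyz2 at 0.25 and C1qb at 0.13. Endothelial markers were higher in 3 of 5 cases (median 0.023; WT from −0.036 to 0.019, KO from −0.029 to 0.044), with Vwf at 0.06 and Esam at 0.02, and 4 more lay under the level filter. None of the genes of these cell type lists passed (limma). At an unadjusted p under 0.05 there were 1 spermatid gene, Acr, and 1 of epididymis and fat, Rnase10, beside 5.11% of all probe sets tested. The part of other cell types in the Sertoli difference was not tested.

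**Figure D4:**
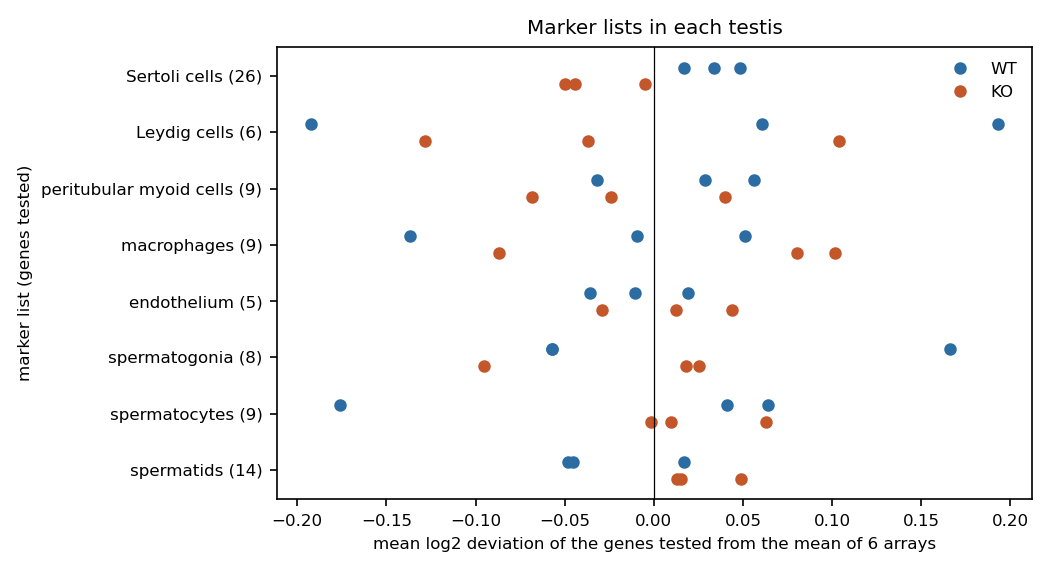
Mean log2 deviation of each marker list from the mean of the 6 arrays (x axis) in 3 WT and 3 KO testes (points), for the Sertoli markers and the cell type lists with at least 5 tested genes (y axis, number of genes in brackets). The 3 KO averages of the Sertoli markers (−0.050 to −0.005) lie below the 3 WT averages (0.017 to 0.048). Every other list overlaps between genotypes, that of the spermatids only narrowly (WT up to 0.017, KO from 0.013).

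Tissue next to the testis and blood varied more between single testes. Rnase10, an epididymal gene, read 7.78, 8.32 and 8.03 in WT and 7.91, 7.02 and 7.10 in KO. KO replicates 2 and 3 were low and KO replicate 1 lay among the WT values, with a difference of −0.70 ± 0.24 (limma adjusted p = 0.869). Lcn8, also epididymal, stood at −0.13. The fat genes went the other way, Fabp4 by 1.16 ± 0.90 and Adipoq by 0.15 ± 0.09 (limma adjusted p = 0.993 for both). Fabp4 read 6.11, 5.77 and 8.38 in WT and 6.84, 9.80 and 7.09 in KO, so that its highest value lay in KO replicate 2. Of the 4 tested genes of epididymis and fat 2 were thus lower and 2 higher, and the average of the list was highest in KO replicate 2 (0.51), with Adam7, Lcn5, Lcn9 and Lep under the level filter. Klf1, an erythroid factor that like Gata1 acts in red cell precursors, read 9.10 in KO replicate 3 and 6.59 to 7.09 elsewhere, whereas Gata1 was lowest in that testis at 8.21. Alas2, another erythroid gene, stood at −0.07. Of the 3 tested erythroid and mast cell genes 1 was lower and 2 higher.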

How the data were processed

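Whole testes of 3 WT and 3 KO mice were read on 1 Affymetrix array each after Trizol extraction and biotin labelling in a single amplification cycle, per the labels' protocols. The authors deposited normalized log2 expression values of 45101 probe sets. GCOS 1.4 is named in the submitters' processing notes, while the sources used here name no method of background correction, probe summary or normalization. The scale was read from the values (2.61 to 14.998, array medians 6.62 to 6.64). If arrays were equalised, a shift common to most transcripts would not show, and detection calls were not used here. The labels call the samples biological replicates.

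Genotype was taken from the titles. After removal of 64 control probe sets, the 60% with the highest mean log2 (27022, lowest mean 6.02) were fitted with limma 3.58.1 (R 4.3.3; lmFit, eBayes with an intensity trend, two-sided, Benjamini-Hochberg threshold 0.05). The number of arrays limits the precision (median SE 0.082). The test was checked on simulated arrays. Symbols come from the platform annotation. List genes were updated by gene id through RefSeq (GRCm38.p6), which 99.4% of probe sets with 1 gene matched. A list gene is represented by its brightest probe set. Of each list, called genes, otherwise the 2 with the smallest p, were named; other probe sets of Eps8, Acvr1 and Cxcl12 and the values of Ptpro, Fabp4 and Adipoq were added after values were seen. Members and lists were chosen with earlier results of these data known. Upstream sequences are RefSeq's. Figures used matplotlib 3.10.9.

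Same-numbered WT and KO samples did not deviate together at every number (correlations of 0.22, −0.024 and 0.096 for numbers 1 to 3), so that the numbers were not taken to pair samples. Alternatives covered normalization, level filter, moderation, array weights, a replicate block, leaving out arrays and the choice of probe set.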

Additional observations from a re-analysis of the deposited data

How the results depend on the processing

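No member probe set passed under any of the 14 alternative fits (limma adjusted p from 0.202 upward, the lowest being Kitl 1415855_at with array weights, where its difference was −0.29). The number of genes lower in KO was 18 of 23 with the upper 40% by level, 21 to 24 of 26 or 27 under the other settings, and 22 to 23 when single arrays were left out. The median over the member probe sets was −0.078 with quantile normalization (beside −0.0005 over all probe sets) and from −0.072 to −0.039 when single arrays were left out, with the highest value without WT replicate 2, and −0.053 without WT replicates 1 and 2 together, which leaves 1 WT array that is assumed to vary like the KO group.

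Over all genes the count of 11 became 7 with the upper 40% by level, 46 with array weights, 2 without WT replicates 1 and 2 together, and from 2 to 12 when single arrays were left out (4 without WT replicate 3, 6 without KO replicate 1, 2 without KO replicate 3). With the replicate block 9 probe sets passed, the members' median stayed at −0.053 and 0 members passed.

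Signs depended on the setting in 36 of 540 member values over 15 probe sets, none of them called. With all arrays, 3 of the 15 (Dhh 1422127_at, Gata4 1418864_at and Drd4 1422829_at) had a size above the members' median of 0.071. Quantile normalization and array weights gave −0.0030 and −0.0051 for Cited2 1452207_at and −0.020 and −0.051 for Cldn11, and array weights gave −0.017 for Gata4 1418863_at. Without WT replicates 1 and 2 together Cldn11 was at −0.068, Gata4 1418863_at at −0.071 and Cst9 at 0.0014. Leaving out single arrays gave these ranges: Amhr2 1427989_at −0.12 to 0.046, Amhr2 1438967_x_at −0.069 to 0.012, Cited2 1421267_a_at −0.028 to 0.052, Cited2 1452207_at −0.040 to 0.031, Cldn11 1416003_at −0.085 to 0.080, Clu 1418626_a_at −0.036 to 0.031, Clu 1437689_x_at −0.099 to 0.022, Clu 1454849_x_at −0.072 to 0.0089, Dhh 1422127_at −0.23 to 0.033, Drd4 1422829_at −0.012 to 0.19, Gata4 1418863_at −0.048 to 0.049, Gata4 1418864_at −0.0087 to 0.21, Inhbb 1426859_at −0.017 to 0.15, Sox9 1424950_at −0.055 to 0.17.

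With 3 arrays a genotype, the 95% intervals of 37 of the 39 member probe sets included 0.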
